A study of Mus musculus with 18 samples.

Results

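The nuclear genes of the mitochondrial respiratory chain were followed in mouse colorectal tissue. Members were the protein-coding genes of the deposited expression table whose names start with Nduf, Sdh, Uqcr, Cox4, Cox5, Cox6, Cox7, Cox8 or Atp5, which gave 94 of the 10897 genes measured. They fall into 45 genes of complex I, 7 of complex II, 8 of complex III, 17 of complex IV and 17 of complex V. The choice used names and gene types and no measured value. By level, Cox5a, a nuclear subunit of cytochrome c oxidase, was detected in every library at 122 to 199 FPKM (fragments per kilobase of transcript, scaled to sequencing depth).

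RNA was sequenced from 18 libraries of colorectal tissue of male C57BL/6J mice aged 10 weeks, 6 in each of 3 groups. The sample characteristics give GF-AOMS as germ-free mice with azoxymethane (AOM) and cigarette smoke, GF-AOM as germ-free mice with AOM, and Control as wild-type mice of specific pathogen-free (SPF) status that also carried AOM-induced cancer. AOM is a chemical carcinogen that gives rodents colon tumours. The treatment protocol instead names a normal control, an AOM model, and AOM combined with smoke, and the growth protocol houses the mice under SPF conditions, so the meaning of a comparison with Control is not settled by the labels and the groups keep their label names. GF-AOMS and GF-AOM differ by smoke under both descriptions. The labels do not say that each library was a separate mouse, so the p-values reflect spread among libraries that may be technical in part. In bulk tissue, fewer cells of a type and less RNA per cell cannot be told apart.

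The respiratory chain sits in the inner mitochondrial membrane. Complex I oxidises NADH and complex II oxidises succinate. Both pass electrons through ubiquinone to complex III and, by way of cytochrome c, to complex IV, which reduces oxygen. The proton gradient built by complexes I, III and IV drives ATP synthase, complex V. All complexes except complex II combine nuclear-encoded subunits with a few encoded in mitochondrial DNA. Colonocytes are known for oxidising butyrate, a product of gut bacteria, as a main fuel.

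Transcription factors long linked to these genes include NRF1, the ETS factor GABPA, YY1 and the estrogen-related receptors (ERR). The RefSeq promoter table (GRCm38.p6) held an entry for 77 of the 94 members. Windows from 250 bases before to 50 after the start were searched on both strands for the letters GCATGCGC (NRF1), CCGGAAG (ETS), AAGATGG (YY1) and AAGGTCA (ERR). The ETS letters stood in 20 of the 77 member windows (26.0%), against 8.86% of all 32851 promoters and 19.6% of the 7887 promoters of measured genes. The NRF1 letters stood in 12 (15.6%), against 2.71% of all promoters and 5.54% of those of measured genes. YY1 letters were found in 11 members (14.3%), against 6.34% and 7.71% of those same sets. ERR letters were found in 8 members (10.4%), against 4.72% and 3.00%. At least 1 of the 4 motifs was present in 41 members (53.2%), against 20.7% of all promoters and 31.7% of those of measured genes.

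The 200 bases upstream of the start are shown for 7 members, 4 with a motif and 3 without, as examples of these windows for genes whose values are given further on. Uqcr11, Sdhd and Atp5e are small subunits of complexes III, II and V that carry the ETS letters, and Ndufaf4 is a complex I assembly factor with the NRF1 letters. In the searched windows, but outside the bases shown, Uqcr11 also had the NRF1 letters, and Sdhd and Atp5e the ERR letters. Cox5a, Sdha and Atp5b have none of the 4 motifs in these bases. Capitals mark the motif as read on the gene's own strand, so CTTCCGG is the ETS motif on the opposite strand, and GCGCATGCGC in Ndufaf4 holds 2 overlapping NRF1 matches, 1 on each strand. The windows are chr10:80406822-80407021 (minus strand) for Uqcr11, chr9:50603850-50604049 (minus) for Sdhd, chr2:174464102-174464301 (minus) for Atp5e, chr4:24897883-24898082 (plus) for Ndufaf4, chr9:57521032-57521231 (plus) for Cox5a, chr13:74350241-74350440 (minus) for Sdha and chr10:128083107-128083306 (plus) for Atp5b.
Uqcr11: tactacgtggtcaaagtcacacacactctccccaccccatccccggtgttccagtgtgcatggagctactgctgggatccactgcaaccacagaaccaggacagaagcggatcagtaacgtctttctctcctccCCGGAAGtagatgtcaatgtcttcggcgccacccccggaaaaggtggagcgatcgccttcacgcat
Sdhd: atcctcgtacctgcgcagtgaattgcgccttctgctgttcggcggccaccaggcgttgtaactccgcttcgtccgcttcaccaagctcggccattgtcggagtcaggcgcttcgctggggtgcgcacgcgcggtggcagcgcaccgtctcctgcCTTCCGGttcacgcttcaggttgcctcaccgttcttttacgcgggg
Atp5e: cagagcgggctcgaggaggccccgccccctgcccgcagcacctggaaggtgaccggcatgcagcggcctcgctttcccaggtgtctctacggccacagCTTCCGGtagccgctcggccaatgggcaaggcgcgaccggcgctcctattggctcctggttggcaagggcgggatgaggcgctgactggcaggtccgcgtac
Ndufaf4: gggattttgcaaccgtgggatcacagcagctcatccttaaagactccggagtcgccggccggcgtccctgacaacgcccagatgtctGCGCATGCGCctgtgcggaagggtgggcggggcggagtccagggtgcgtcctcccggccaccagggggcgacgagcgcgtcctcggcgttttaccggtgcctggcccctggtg
Cox5a: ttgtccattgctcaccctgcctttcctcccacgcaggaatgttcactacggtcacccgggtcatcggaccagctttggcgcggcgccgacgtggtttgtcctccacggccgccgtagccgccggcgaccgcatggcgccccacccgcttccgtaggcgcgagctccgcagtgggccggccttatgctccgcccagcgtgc
Sdha: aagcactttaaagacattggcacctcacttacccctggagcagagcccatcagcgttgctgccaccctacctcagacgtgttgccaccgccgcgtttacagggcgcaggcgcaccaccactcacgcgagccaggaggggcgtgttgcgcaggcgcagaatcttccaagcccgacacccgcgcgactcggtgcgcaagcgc
Atp5b: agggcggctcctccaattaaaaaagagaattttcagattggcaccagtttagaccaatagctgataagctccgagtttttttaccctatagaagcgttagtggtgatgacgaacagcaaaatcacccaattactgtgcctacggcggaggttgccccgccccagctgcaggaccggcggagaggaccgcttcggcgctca
In these windows the ETS letters lay 66 to 60 bases upstream of the start in Uqcr11, 46 to 40 in Sdhd and 102 to 96 in Atp5e. The 2 NRF1 matches of Ndufaf4 together spanned 113 to 104 bases upstream. A match describes letters only and is not a binding site.

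Members were among the strongly expressed genes of the tissue. Their median over the means of the 18 libraries was 86.5 FPKM, against 7.32 FPKM for all genes measured. Of the 94, 44 averaged at least 100 FPKM and 10 averaged under 10 FPKM. The smallest count of any member in any library was 70 reads.

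Complex IV held both ends of the scale. Cox4i1, the common isoform of the regulatory subunit 4, had the highest mean level at 704 ± 199 FPKM (SD, n = 18). Cox6a1 (648 FPKM) and Cox8a (613 FPKM) followed, both the broadly expressed isoforms of small subunits. At the low end stood Cox6b2, an isoform best known from testis, at 1.56 FPKM, Ndufa4l2, a paralogue of Ndufa4, at 2.72 FPKM, and Cox4i2, an isoform best known from lung, at 2.74 FPKM.

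The other complexes spanned narrower ranges. In complex V the catalytic core led, with Atp5a1 (alpha subunit) at 410 FPKM and Atp5b (beta subunit) at 333 FPKM, while Atp5g1, 1 of 3 genes for the c-ring protein, was lowest at 41.5 FPKM. In complex III, Uqcrh, the hinge protein, averaged 417 FPKM and the core protein Uqcrc1 88.4 FPKM. In complex II the membrane anchor Sdhd averaged 337 FPKM and the flavoprotein Sdha 71.6 FPKM. In complex I the accessory subunit Ndufb9 averaged 327 FPKM.

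By median, assembly factors were scarcer than the subunits they help to join. Levels overlapped in complex I, where the factor Ndufaf8 averaged 33.9 FPKM and the core subunit Ndufs1 11.3 FPKM. The 8 complex I factors had a median of 7.80 FPKM, with Ndufaf2 lowest at 5.12 FPKM, while the 7 core subunits had a median of 56.9 FPKM and the 30 accessory subunits 61.8 FPKM. The 3 complex II factors (Sdhaf1, Sdhaf2, Sdhaf4) averaged 12.1, 5.29 and 11.6 FPKM. Order between genes depends on the length used, since the length behind the deposited FPKM matched the union of all annotated exons within 1% for 97.9% of genes. Per kilobase of the principal transcript Cox4i1 stayed at rank 1, Uqcrh moved to rank 2 and Atp5e, the epsilon subunit of ATP synthase, to rank 3 from rank 21.

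**Figure D1:**
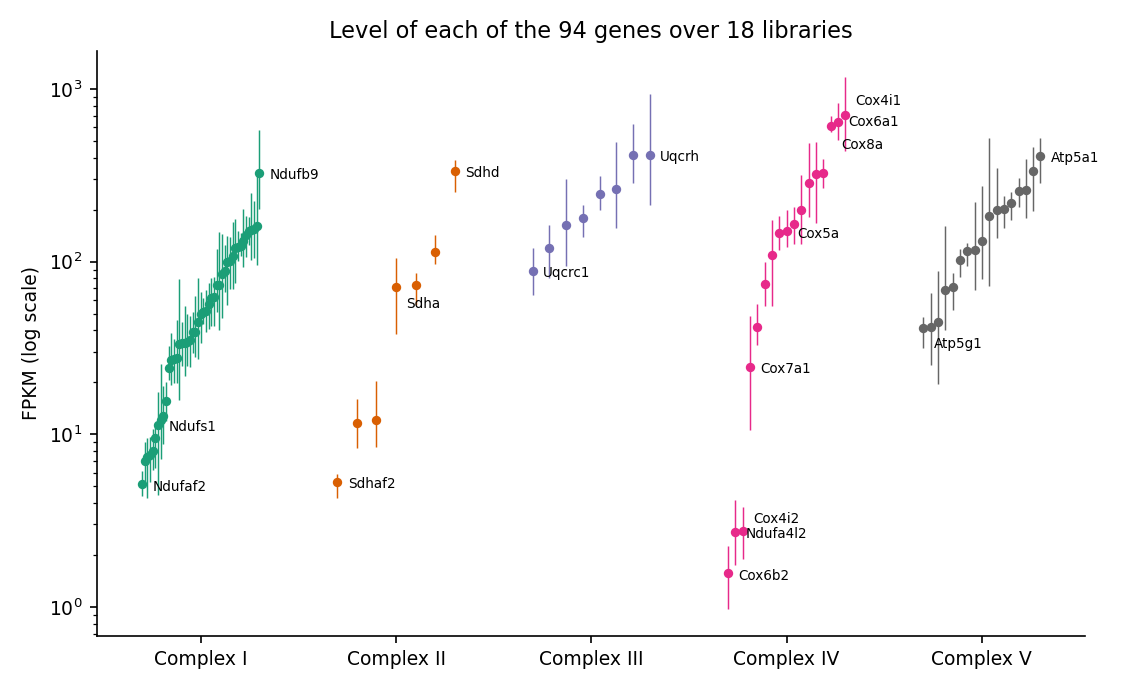
Mean level of each of the 94 genes over 18 libraries by complex, on a log axis in FPKM, with lines from the lowest to the highest library. Complex IV holds the highest gene, Cox4i1 at 704 FPKM, and the lowest, Cox6b2 at 1.56 FPKM.

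Some reads cannot be placed with confidence on 1 gene. The table lists 9 rows with such names as processed pseudogenes, among them Ndufa12-ps at 102 FPKM beside Ndufa12 at 35.0 FPKM, and Ndufb4c at 63.8 FPKM beside Ndufb4 at 44.7 FPKM. Pseudogene names are also carried by 2 members, Cox5b-ps (41.9 FPKM, beside 148 FPKM for Cox5b) and Ndufb1-ps (33.2 FPKM). Exons of 18 members overlap those of another measured gene, among them Ndufs1 with Eef1b2 and Cox4i1 with Emc8. Whether the authors' counting used strand is not given in the sources used here, so the values of these genes are uncertain.

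Before the groups, the libraries themselves set the largest differences. Levels from here on are CPM (counts per M counts after TMM scaling, where M is mega). The mean log2 CPM of the 94 genes, taken as the deviation from its mean over all libraries, lay between -0.46 in Control replicate 3 and 0.81 in GF-AOMS replicate 2, a 2.41-fold span. GF-AOMS replicate 2 held the highest value of 67 of the 94 genes. Control replicate 3 held the lowest value of 26, Control replicate 5 of 24 and GF-AOMS replicate 3 of 19. High and low libraries therefore occurred within each group, and the groups overlapped in every complex.

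The complexes moved together across libraries. The span between the highest and the lowest library was 2.52-fold for complex I, 1.48-fold for complex II, 2.41-fold for complex III, 2.51-fold for complex IV and 2.81-fold for complex V. Complex II, the only complex with no mitochondrially encoded partner, varied over the narrowest range.

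**Figure D2:**
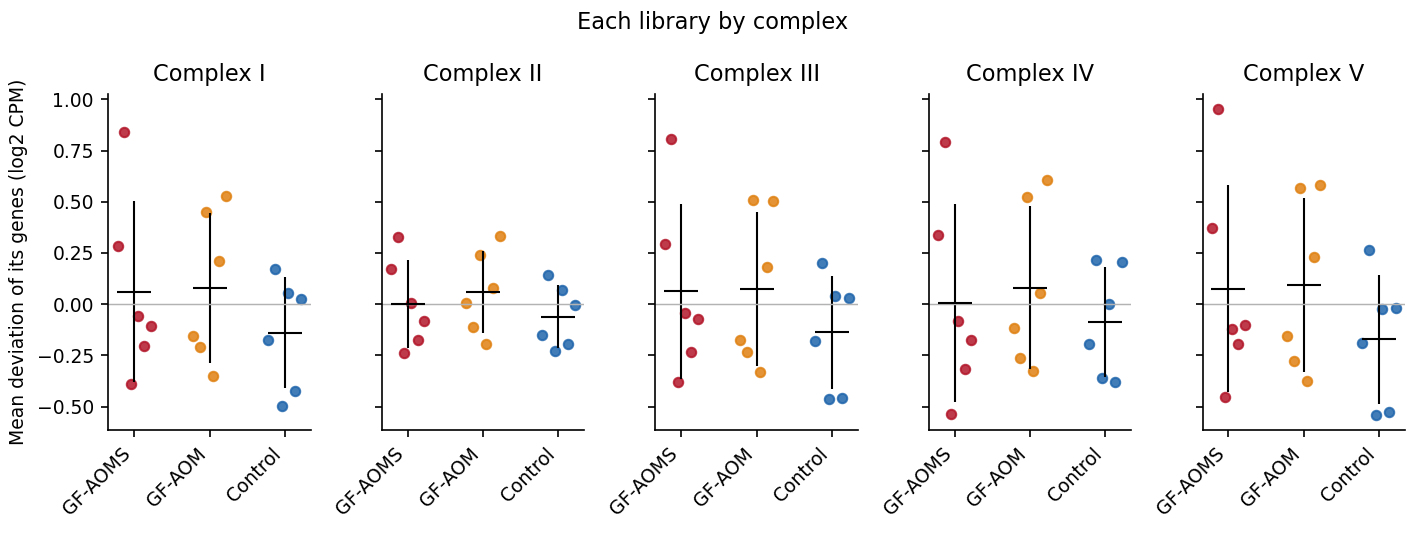
Mean deviation of the genes of each complex in each library (log2 CPM, relative to each gene's mean over 18 libraries), with the mean and SD of 6 libraries per group. GF-AOMS replicate 2 is the highest point in complexes I, III, IV and V, and the groups overlap in each panel.

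Single genes followed this common pattern to different degrees. Pearson r of each gene's log2 CPM with the mean of the other members over the 18 libraries exceeded 0.9 for 56 of the 94 (59.6%), against 6.44% of the genes that are not members. The same measure exceeded 0.9 for 73.8% of the 80 cytosolic ribosomal protein genes, so it was not particular to respiratory chain genes. Atp5e varied most, over 11.8-fold between its lowest and highest library, followed by Ndufb1-ps (8.16-fold), Atp5md (7.31-fold) and Uqcrh (7.25-fold). Atp5a1 was the steadiest member, at 1.41-fold. Of the genes whose promoters are shown above, r was 0.99 for Uqcr11, 0.97 for Atp5e, 0.94 for Sdhd, 0.78 for Cox5a and 0.74 for Ndufaf4. Of the 77 members with a promoter entry, 48 had r over 0.9. In these 48 windows the NRF1 letters stood in 7, the ETS letters in 15, the YY1 letters in 8 and the ERR letters in 8, and 29 held at least 1 of the 4. In the windows of the 29 others the NRF1 letters stood in 5, the ETS letters in 5, the YY1 letters in 3 and the ERR letters in 0, and 12 held at least 1. These counts are a description with no test, and both sets included windows with and without the letters.

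There were 10 members that ran against the common pattern or apart from it, with r below 0. They were Ndufs1 (-0.82), Sdha (-0.73), Atp5b (-0.57), Ndufa10 (-0.30), Uqcrc2 (-0.25), Atp5a1 (-0.15), Ndufaf1 (-0.12), Ndufa9 (-0.10), Uqcrc1 (-0.06) and Ndufv1 (-0.03). Ndufs1 and Ndufv1 are core subunits of the NADH-oxidising arm, Sdha holds the succinate site, Uqcrc1 and Uqcrc2 are the core proteins of complex III, and Atp5a1 and Atp5b form the catalytic head of ATP synthase. Most of these genes have long coding sequences. Of the 13 members with over 1000 coding bases, 9 had r below 0 (median -0.10), while of the 80 members with up to 1000 coding bases 1 had r below 0 (median 0.96).

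Coding length was related to covariation through the whole set, and in other genes as well. The 31 members with the shortest coding sequence (156 to 333 bases) had a median r of 0.97, the middle 31 (333 to 516 bases) 0.91 and the longest 31 (519 to 2181 bases) 0.80. Genes outside the set in the same length ranges, with cytosolic ribosomal protein genes left out, had medians of 0.82, 0.71 and -0.08. The longest range mixes unlike lengths. Over 1000 coding bases the median r was -0.10 for members and -0.30 for these other genes. Across genes, which are not independent replicates, Spearman rho between r and coding length was -0.54 for the 93 members with a coding length and -0.62 for 9711 genes.

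**Figure D3:**
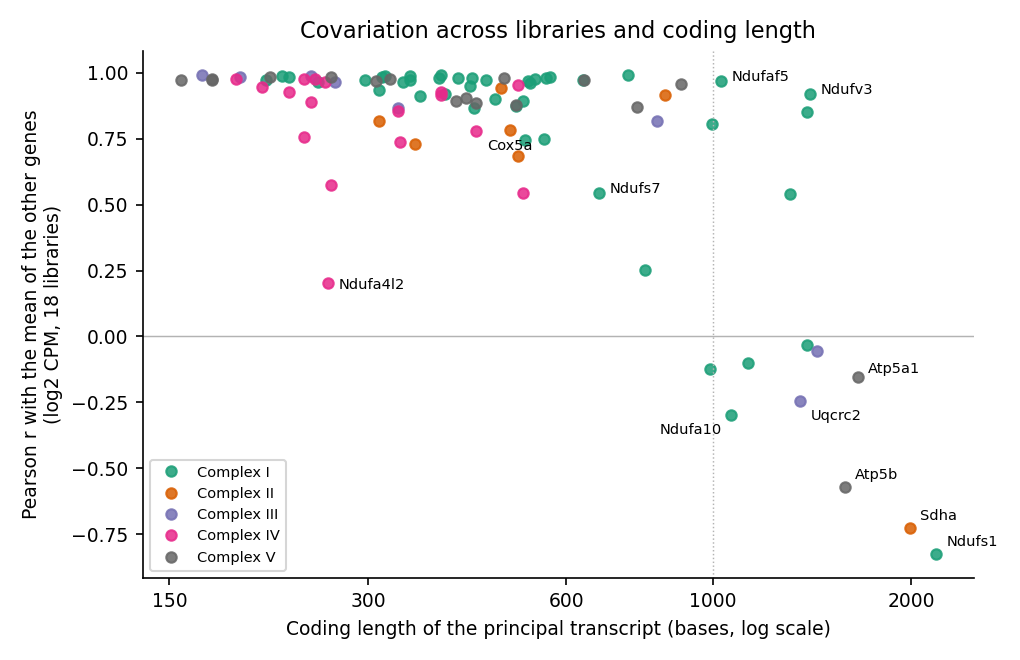
Pearson r of each member with the mean of the other members over 18 libraries (vertical axis, log2 CPM) against the coding length of its principal transcript in bases (log axis), coloured by complex. Of the 13 genes to the right of the dotted line at 1000 bases, 9 lie below 0.

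The common level of the members was related to several features of the libraries. Its Pearson r with the log2 share of counts on cytosolic ribosomal protein genes was 0.88 over the 18 libraries (Spearman rho 0.87), 0.82 without the 2 libraries farthest from the median share, and 0.99, 0.85 and 0.88 within GF-AOMS, GF-AOM and Control. With the slope of a library's log2 CPM on transcript length it was -0.95. With the TMM scaling factor it was -0.96, where part of the relation is built in, since CPM is already divided by that factor. That share averaged 14.0% in GF-AOMS, 14.7% in GF-AOM and 8.66% in Control. The mean log2 CPM of marker genes of other cells was related to it as well. Over the 18 libraries r was 0.70 for goblet cell markers, 0.67 for smooth muscle, -0.71 for endothelium, -0.65 for cycling cells and -0.49 for epithelium (-0.71 without the 2 libraries farthest from the median). These descriptions share libraries and depth, and the part of the ribosomal share, transcript length, scaling or other cells in the group values below was not tested by them.

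For the mitochondrially encoded partners the relation was weaker. Over the 18 libraries the mean of the 13 mitochondrially encoded subunits had an r of -0.05 with the mean of the members, and within the groups of 6 it was 0.29 in GF-AOMS, 0.19 in GF-AOM and 0.10 in Control.

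Cox5a itself was steady. It measured 320.5, 356 and 464 CPM (lowest, median and highest of 6) in GF-AOMS libraries, 285, 351 and 436 CPM in GF-AOM libraries and 299, 373 and 466 CPM in Control. The 3 groups overlapped almost entirely. The log2 difference was 0.07 for GF-AOMS against GF-AOM, -0.01 for GF-AOMS against Control and -0.07 for GF-AOM against Control. Among the members, Sdhb (iron-sulfur subunit of complex II, Spearman rho 0.95 over 18 libraries), Cox6a1 (0.94) and Ndufab1, the mitochondrial acyl carrier protein (0.93), had patterns most like Cox5a. Outside the members the nearest were Edf1 (0.93), Atpif1, which encodes the inhibitor of ATP synthase (0.92), Cycs, cytochrome c (0.91), Mrpl21 (0.91) and Prdx1 (0.91).

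GF-AOMS against GF-AOM asks what differed with cigarette smoke. No member was called at a Benjamini-Hochberg adjusted p under 0.05 by the edgeR quasi-likelihood test, where 0.0% of all genes were called. At an unadjusted p under 0.05 no member passed, against 1.09% of all genes. DESeq2 called no member (0.0275% of all genes), and no member had values that did not overlap between the groups (0.0642% of all genes). The median log2 difference was 0.01 over the members and 0.01 over all genes, and 57 of the 94 differences were positive (53.6% of all genes). That balance changed with single libraries and with the fit. Without GF-AOMS replicate 2 the members' median was -0.21 with 12 positive, without GF-AOM replicate 6 it was 0.11 with 85 positive, and with a replicate block it was -0.04 with 31 positive.

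The values closest to a call in that comparison were small. Ndufa9, an accessory subunit of complex I, differed by 0.12, the assembly factors Ndufaf7 and Sdhaf4 by -0.16 and -0.31, Sdha by 0.11, the core proteins Uqcrc1 and Uqcrc2 by 0.13 and 0.10, Cox6b2 by -0.25, Atp5b by 0.15 and the delta subunit Atp5d by 0.14 on the log2 scale. All had an adjusted p of 1.00 by edgeR. The standard error of a member's log2 difference had a median of 0.22 (0.10 to 0.56), and 6 of the 94 differences exceeded their own standard error.

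In GF-AOMS against Control no member was called either, where the edgeR quasi-likelihood test called 0.734% of all genes. A single member, Sdha, had an unadjusted p under 0.05 (1.06% of members, against 16.2% of all genes). DESeq2 called no member (3.44% of all genes), and no member had values without overlap (0.798% of all genes). The median log2 difference was 0.25 over the members against 0.01 over all genes, and 79 of the 94 were positive (51.0% of all genes). Between libraries of the same group, the members' mean log2 CPM had an SD of 0.37, which is larger than this median. That SD is a spread of single libraries and not the error of a difference between groups. The standard error of a member's log2 difference had a median of 0.22, and 55 of the 94 differences exceeded their own standard error. Since most members moved together across libraries, the 94 differences are not separate observations.

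GF-AOM against Control gave the same kind of picture. The edgeR quasi-likelihood test called no member (0.00918% of all genes), and 5 members had an unadjusted p under 0.05 (5.32%, against 15.7% of all genes). DESeq2 called no member (2.61% of all genes), and no member had values without overlap (0.762% of all genes). The median log2 difference was 0.25 over the members against -0.00 over all genes, and 75 of the 94 were positive (49.5% of all genes). This median, too, was smaller than the SD of 0.37 between single libraries of a group. The standard error of a member's log2 difference again had a median of 0.22, and 58 of the 94 differences exceeded their own standard error. Both comparisons use the same 6 Control libraries, so they do not repeat each other independently. With each library's ribosomal protein share as a covariate, 29 of the 94 members had an unadjusted p under 0.05 for GF-AOM against Control (1276 of all 10897 genes) and 24 for GF-AOMS against Control (1681 of all genes), so the low counts of members above held for the fit without it.

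The size of the medians against Control depended on the processing and on the libraries kept, and with 1 covariate both turned negative. With each library's ribosomal protein share as a covariate the members' median was -0.20 for GF-AOMS and -0.22 for GF-AOM, and with each library's trend on principal transcript length removed it was 0.04 for GF-AOMS and 0.02 for GF-AOM. Without the 4 Control libraries that lacked Hoxa13, a marker of the distal colon, it was 0.12 for GF-AOMS and 0.11 for GF-AOM. Without GF-AOMS replicate 2 it was 0.05 for GF-AOMS, while leaving out any 1 library gave 0.15 to 0.33 for GF-AOM. A choice made after the data were seen left out the 5 libraries with a TMM factor under 0.9. The members' median was then -3.3e-05 for GF-AOMS, with 47 of the 94 positive, and 0.08 for GF-AOM, with 59 positive. Upper quartile scaling gave higher medians, 0.30 for both comparisons, and DESeq2 gave 0.26 for both. Scaling by total counts gave lower ones, 0.16 for GF-AOMS and 0.14 for GF-AOM.

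**Figure D4:**
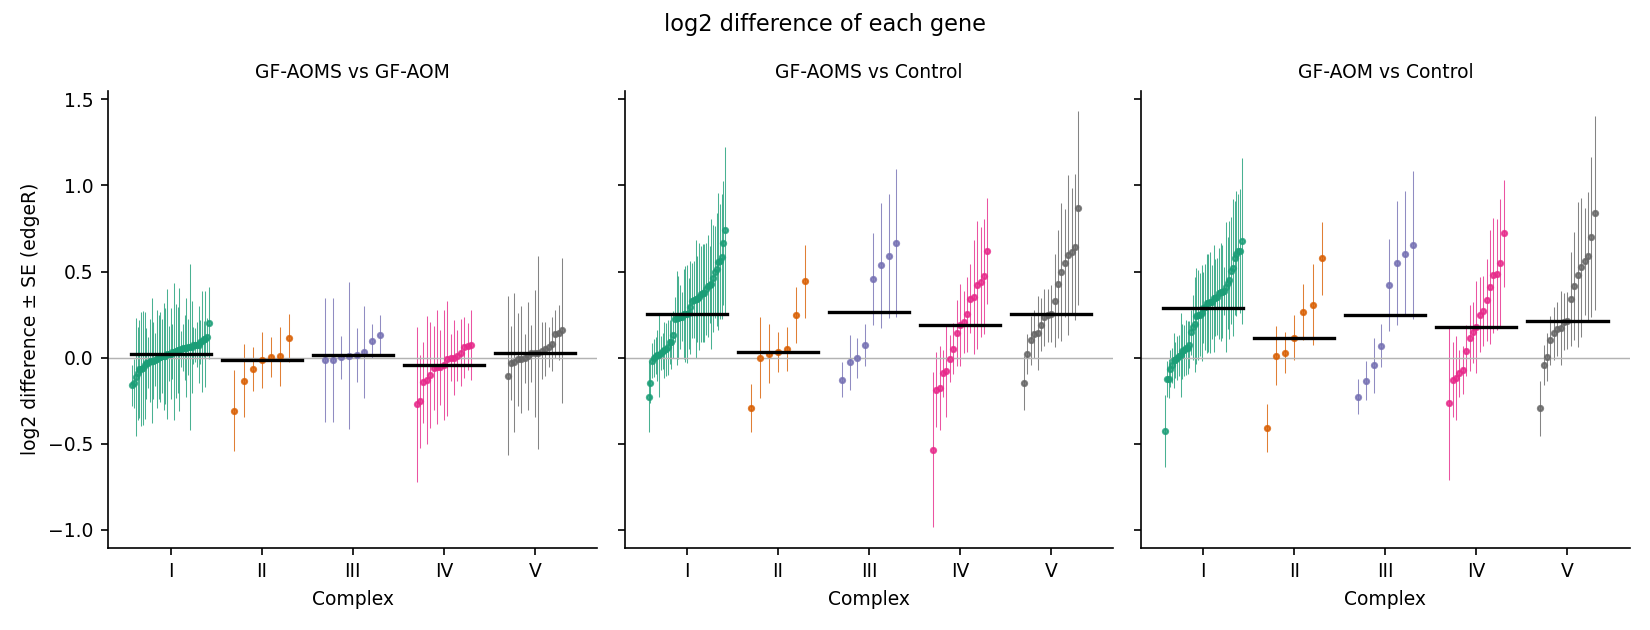
log2 difference of each of the 94 genes in the 3 comparisons with its standard error from edgeR, grouped by complex, with the median of each complex as a bar. The medians of complexes I to V lie between -0.04 and 0.03 for GF-AOMS against GF-AOM, and between 0.04 and 0.29 for both comparisons with Control.

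By role, the medians differed within complex I. In GF-AOMS against Control its 30 accessory subunits had a median log2 difference of 0.34, its 7 core subunits 0.04 and its 8 assembly factors 0.07. In GF-AOM against Control the accessory subunits had 0.32, the core subunits -0.01 and the assembly factors 0.05. In the other complexes the medians for GF-AOMS were 0.04 (complex II), 0.27 (III), 0.19 (IV) and 0.26 (V), and for GF-AOM 0.12 (II), 0.25 (III), 0.18 (IV) and 0.22 (V).

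The medians also differed by coding length. The 31 members with the shortest coding sequence had a median log2 difference of 0.42 for GF-AOMS and 0.45 for GF-AOM, each against Control. The middle 31 had 0.25 for GF-AOMS and 0.22 for GF-AOM, and the longest 31 had 0.05 for GF-AOMS and 0.04 for GF-AOM. Genes outside the set in the same 3 length ranges, with cytosolic ribosomal protein genes left out, had 0.23, 0.16 and -0.01 for GF-AOMS. For GF-AOM they had 0.27, 0.19 and -0.02. Over 1000 coding bases the medians for members were -0.00 for GF-AOMS and -0.12 for GF-AOM. Those of these other genes were -0.04 for GF-AOMS and -0.06 for GF-AOM.

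Sdha, which carries the flavin and the succinate site of complex II, had the smallest p of any member against Control. It measured 254, 322 and 396 CPM (lowest, median, highest) in GF-AOMS libraries, 260.3, 280.4 and 337 CPM in GF-AOM libraries and 287, 399.8 and 474 CPM in Control. All 6 GF-AOM libraries and 5 of the 6 GF-AOMS libraries lay below the Control mean, and the ranges overlapped. The log2 difference was -0.41 (SE 0.14, edgeR adjusted p = 0.204) for GF-AOM against Control and -0.29 (SE 0.14, edgeR adjusted p = 0.305) for GF-AOMS against Control. Its partners Sdhb, Sdhc and Sdhd had positive differences in both comparisons, but the median of the 4 subunits was only 0.02 for GF-AOM and 0.03 for GF-AOMS. In FPKM, Sdhb averaged 112 in GF-AOMS, 110 in GF-AOM and 118 in Control. Sdhc averaged 73.5 in GF-AOMS, 71.0 in GF-AOM and 74.5 in Control.

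The assembly factor Sdhaf1, which helps to mature the iron-sulfur subunit of complex II, measured 23.7, 35.2 and 54.3 CPM in GF-AOMS libraries, 24.2, 41.9 and 58.1 CPM in GF-AOM libraries and 23.6, 26.6 and 35.8 CPM in Control. The top GF-AOMS and GF-AOM libraries exceeded every Control library, while the lowest libraries of the 3 groups were alike. Its log2 difference was 0.44 (SE 0.21, edgeR adjusted p = 0.312) for GF-AOMS and 0.58 (SE 0.21, edgeR adjusted p = 0.231) for GF-AOM, each against Control.

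Ndufaf4, an assembly factor of complex I, measured 23.1, 36.8 and 40.5 CPM in GF-AOMS libraries, 30.9, 37.9 and 44.2 CPM in GF-AOM libraries and 21.9, 30.2 and 34.2 CPM in Control. All 6 GF-AOM libraries lay above the Control mean, with overlap between the ranges. Its log2 difference was 0.24 (SE 0.14, edgeR adjusted p = 0.396) for GF-AOMS and 0.39 (SE 0.14, edgeR adjusted p = 0.226) for GF-AOM, each against Control.

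Cox7a2l, a gene linked to supercomplexes of complexes III and IV, had the largest standard error of the 5 members with an unadjusted p under 0.05. Whether its protein joins them in these mice was not tested. It measured 319.6, 539 and 1125 CPM in GF-AOMS libraries, 345, 716 and 888 CPM in GF-AOM libraries and 245, 365 and 606 CPM in Control. GF-AOMS replicate 2 was its highest library, and the groups overlapped. Its log2 difference was 0.62 (SE 0.31, edgeR adjusted p = 0.325) for GF-AOMS and 0.72 (SE 0.31, edgeR adjusted p = 0.288) for GF-AOM, each against Control.

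Uqcrc2, a core protein of complex III, measured 304, 344 and 379.7 CPM in GF-AOMS libraries, 304, 320.4 and 347 CPM in GF-AOM libraries and 330.4, 358 and 463 CPM in Control. The 6 GF-AOM libraries all lay below the Control mean of 377 CPM. Its log2 difference was -0.13 (SE 0.10, edgeR adjusted p = 0.517) for GF-AOMS and -0.23 (SE 0.10, edgeR adjusted p = 0.2999) for GF-AOM, each against Control. Ndufs1, the largest core subunit of complex I, measured 58.5, 108 and 143 CPM in GF-AOMS libraries, 65.4, 84.5 and 113 CPM in GF-AOM libraries and 80.0, 125 and 146 CPM in Control, with a log2 difference of -0.23 for GF-AOMS and -0.43 for GF-AOM, each against Control.

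**Figure D5:**
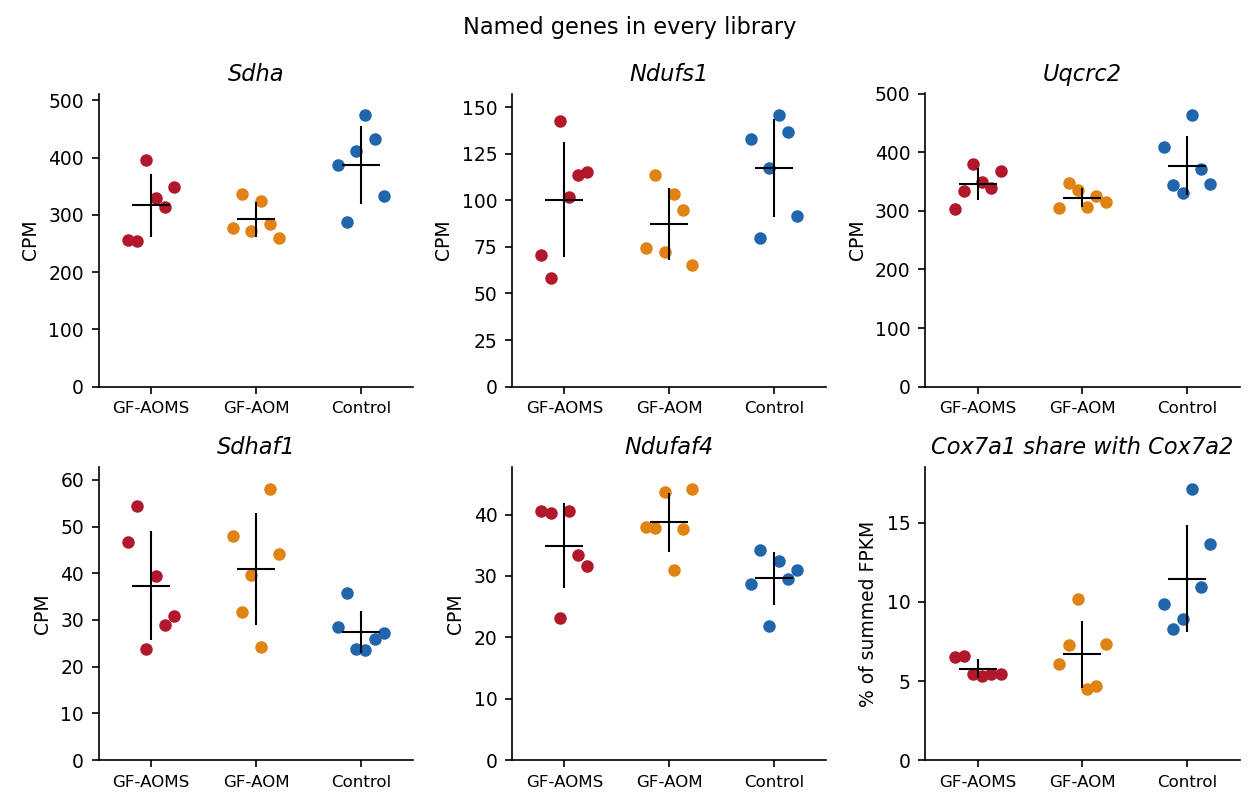
Values of Sdha, Ndufs1, Uqcrc2, Sdhaf1 and Ndufaf4 in CPM, and the share of Cox7a1 in the summed FPKM of Cox7a1 and Cox7a2 in percent, in each of 18 libraries, with the mean and SD of 6 per group. The share of Cox7a1 is 5.29% to 6.57% in GF-AOMS, 4.51% to 10.2% in GF-AOM and 8.27% to 17.2% in Control.

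Other members with the smallest p of their complex did not pass either. Against Control, the complex III subunits Uqcrq and Uqcr10 differed by 0.59 and 0.46 in GF-AOMS, the membrane subunits Atp5l and Atp5mpl of ATP synthase by 0.55 and 0.62, the accessory subunits Ndufb11 and Ndufa12 of complex I by 0.50 and 0.42, and Cox5b-ps by 0.34 on the log2 scale. In GF-AOM against Control the values were 0.60 for Uqcrq, 0.48 for Cox7c, 0.56 for Atp5l and -0.29 for Atp5b. None passed the edgeR quasi-likelihood test after adjustment.

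Complex IV includes subunits with tissue isoforms, and the balance within a pair can be read inside each library. Cox7a1 is the isoform known from heart and skeletal muscle, and Cox7a2 is the broadly expressed one. Cox7a1 made up 5.29%, 5.44% and 6.57% of their summed FPKM (lowest, median, highest) in GF-AOMS, 4.51%, 6.68% and 10.2% in GF-AOM and 8.27%, 10.4% and 17.2% in Control. Every Control library lay above every GF-AOMS library, while GF-AOM overlapped with both.

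The mean share was 5.78% ± 0.59 in GF-AOMS, 6.69% ± 2.10 in GF-AOM and 11.5% ± 3.37 in Control (SD, n = 6 each). The difference was -5.69 percentage points for GF-AOMS against Control (SE 1.40), with a two-sided exact permutation p = 0.00216, the smallest that 6 against 6 libraries can give, and p = 0.0260 after Benjamini-Hochberg adjustment over the 12 tests of 4 isoform pairs in 3 comparisons. For GF-AOM against Control it was -4.78 points (exact permutation p = 0.0130, adjusted 0.0779), and for GF-AOMS against GF-AOM -0.91 points (exact permutation p = 0.385, adjusted 0.514). The test was chosen after the values had been seen.

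The groups also differed in a marker of colon position. Hoxa13, a gene of the distal colon, measured at most 3.05 CPM in Control replicates 3 to 6, and at least 24.7 CPM in the 14 other libraries. The 2 Control libraries with Hoxa13 had Cox7a1 shares of 9.86% and 8.27%, above the highest GF-AOMS library at 6.57%, and the 4 without it had 8.94%, 17.2%, 10.9% and 13.7%, so both sets of Control libraries overlapped. Without the other 4 Control libraries the difference for GF-AOMS against Control was -3.28 points (exact permutation p = 0.0714, the smallest that 6 against 2 libraries can give, adjusted 0.643). Position and group cannot be told apart for those 4 libraries. Leaving out any 1 library of either group gave -4.55 to -6.33 points with an adjusted p = 0.0519 by the exact permutation test, whose unadjusted p = 0.00433 was the smallest possible, and leaving out the 5 libraries with a TMM factor under 0.9 gave -6.71 points with an adjusted p = 0.0952 by the same test.

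Cox7a1 alone measured 5.63, 8.56 and 29.99 CPM in GF-AOMS libraries, 6.39, 10.1 and 34.0 CPM in GF-AOM libraries and 10.4, 17.96 and 28.9 CPM in Control, and its log2 difference for GF-AOMS against Control was -0.53 (edgeR adjusted p = 0.548). Markers of other cells differed in both directions for GF-AOMS against Control, and none of those named in this paragraph was called. The 3 striated muscle markers measured, of 7, all had negative differences for GF-AOMS against Control (median log2 -0.44), as did the 2 adipocyte markers measured, of 5 (Fabp4 and Cidec, median -1.38). All 6 smooth muscle markers had positive differences (median 0.85). Their summed level had a median of 3385 CPM in GF-AOMS and 3171 CPM in Control, and the highest GF-AOMS library reached 12170 CPM. The median log2 differences were 0.12 for goblet cell markers and -0.01 for the 2 measured markers of enteric neurons and glia. Over the 18 libraries the log2 CPM of Cox7a1 had an r of 0.07 with the mean of the striated muscle markers and 0.53 with the adipocyte markers. It was 0.34 with smooth muscle, 0.53 with goblet cells, 0.60 with enteric neurons and glia and -0.62 with cycling cells. Their part in the share was not tested.

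The other isoform pairs gave no adjusted p under 0.05 by the exact permutation test. Cox4i2 made up a mean of 0.38% of Cox4i1 and Cox4i2 in GF-AOMS, 0.35% in GF-AOM and 0.53% in Control. Ndufa4l2 made up 3.47% of Ndufa4 and Ndufa4l2 in GF-AOMS, 3.22% in GF-AOM and 4.21% in Control. Cox6b2 made up 0.42% of Cox6b1 and Cox6b2 in GF-AOMS, 0.52% in GF-AOM and 0.50% in Control.

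Other gene groups of the pathway gave different medians. Of the 13 mitochondrially encoded subunits, 12 had negative differences both in GF-AOMS against Control (median log2 -0.49) and in GF-AOM against Control (median -0.53), while GF-AOMS against GF-AOM had a median of -0.03. A single one was called, mt-Nd2, a complex I subunit, which fell to a mean of 766 CPM in GF-AOMS, against 1176 CPM in Control (log2 -0.62, SE 0.13, edgeR adjusted p = 0.0408). This call was kept in 9 of 33 alternatives, with log2 differences of -0.55 to -0.79. DESeq2 gave it an adjusted p of 0.000116. The edgeR adjusted p was 0.0202 to 0.116 when any 1 library was left out, 0.0272 with the length trend removed and 0.112 with a replicate block. Without the 4 Control libraries that lacked Hoxa13 it was 0.999. In that fit the log2 difference of mt-Nd2 was -0.60, and 0 of all 10897 genes were called. Of the 13 enzymes of the tricarboxylic acid cycle, none was called, and 11 were negative for GF-AOMS (median -0.10) and 12 for GF-AOM (median -0.15), each against Control.

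Ribosomal protein genes had positive medians against Control. The 78 mitochondrial ribosomal protein genes had medians of 0.23 for GF-AOMS and 0.21 for GF-AOM, and the 80 cytosolic ribosomal protein genes had 0.81 for GF-AOMS and 0.84 for GF-AOM, with none called in either list. The 39 measured assembly factors whose names fall outside the rule had medians of 0.04 for GF-AOMS and 0.07 for GF-AOM, and Cycs and Cyc1, the cytochromes c and c1, had -0.06 for GF-AOMS and -0.05 for GF-AOM. Of the 12 measured regulators, none was called. Their smallest p belonged to Pparg, at -0.79 for GF-AOMS (edgeR adjusted p = 0.115) and -0.76 for GF-AOM (edgeR adjusted p = 0.148), each against Control.

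Markers of other cells differed in level beside these values. All 8 epithelial markers, 6 of 6 smooth muscle markers and 6 of 7 immune markers were measured and none was at 0 in a whole group. The summed level of the epithelial markers ranged from 6370 to 9188 CPM in GF-AOMS, 5528 to 8071 CPM in GF-AOM and 7949 to 12683 CPM in Control. That of smooth muscle ranged from 2114 to 12170 CPM in GF-AOMS, 3490 to 5683 CPM in GF-AOM and 1530 to 4610 CPM in Control. That of the immune markers ranged from 1761 to 6927 CPM in GF-AOMS, 3408 to 6787 CPM in GF-AOM and 668 to 4047 CPM in Control. The 6 surface colonocyte markers were all measured, and their summed level ranged from 974 to 1992 CPM in GF-AOMS, 602 to 1884 CPM in GF-AOM and 2002 to 20974 CPM in Control. Of these, Car1 and Cdhr5 were called in GF-AOMS against Control by the edgeR quasi-likelihood test (median log2 of the 6 genes -0.33), and none in GF-AOM against Control (median -0.57). Their directions were mixed, so the sum does not stand for all 6. Against Control, 3 were positive and 3 negative for GF-AOMS (log2 -3.91 to 0.32), and 2 positive and 4 negative for GF-AOM (-3.93 to 0.39). The 2 adipocyte markers measured summed to 34.2 to 118 CPM in GF-AOMS, 39.3 to 107 CPM in GF-AOM and 51.2 to 287 CPM in Control. All 4 endothelial markers had negative differences against Control, with medians of -0.47 for GF-AOMS and -0.33 for GF-AOM and no call. The part of these cells in the members' values was not tested.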

How the data were processed

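RNA from colorectal tissue was sequenced in 18 libraries. Per the labels' protocols, total RNA (integrity number 7.0 or higher) was depleted of ribosomal RNA and made into strand-specific libraries, all in 1 batch. Read counts per gene were deposited by the authors as whole numbers, with FPKM values beside them per the file headers. The submitters' processing notes list featureCounts, DESeq2 and build GRCm39, and the aligner is not given in the sources used here. Positions in the table match GRCm38: for 91 of the 94 members both ends lay within 100 bases of the GENCODE M21 annotation. Every gene had at least 1 FPKM in at least 15 libraries, so genes below that are not analysed here.

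The depth per library was 48.95 M to 79.23 M counts, with M for mega. Counts of all 10897 genes and all 18 libraries were fitted in edgeR 4.0.16 (R 4.3.3) with TMM scaling, no covariate and 15 residual degrees of freedom. The quasi-likelihood test was two-sided, with a call at an adjusted p under 0.05 (Benjamini-Hochberg, all genes). CPM is after TMM scaling, and log2 CPM has a prior count of 2. DESeq2 1.42.0 and limma 3.58.1 on log2(FPKM + 1) were alternatives, and descriptions used Python 3.11.15 with scipy 1.17.1. Library slopes and coding lengths use the GENCODE principal transcript. The fits were tested on simulated data. Replicate numbers did not pair the libraries, and no 2 libraries of a group agreed within sampling noise. Genes were named by a rule: Cox5a, the highest and lowest gene of each complex, the 2 smallest p in each complex and comparison, isoform pairs, the genes most like Cox5a, and the 2 smallest p in each other list, with genes outside it named for their length, spread or covariation. Members and lists were chosen with earlier results of these data known.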

Additional observations from a re-analysis of the deposited data

Results flagged for a closer look

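A library was taken to stand apart where its gap to the nearest other library of its group took more of the group's range than Dixon's critical value at the 95% level for 6 libraries. This was checked in 138 groups, made of 46 measures in 3 groups, and 4 stood apart, where chance alone would give about 1 in 20, or 6.9. GF-AOMS replicate 2 was the high library in 3 of the 4 cases. Atp5g3, a c-ring gene of ATP synthase, had a log2 CPM of 9.53 there, against 8.86 to 9.11 in the other GF-AOMS libraries. Cox5b-ps had 5.17, against 4.00 to 4.34, and Ndufa12, an accessory subunit of complex I, had 6.95, against 5.77 to 6.14. The assembly factor Sdhaf2 was low in GF-AOMS replicate 3, with a log2 CPM of 4.95 against 5.44 to 5.68 in the other 5. GF-AOMS replicate 2 also had the highest share of counts on cytosolic ribosomal protein genes (26.6%) and the lowest TMM factor (0.721), and whether these bear on its high values was not tested.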

How the results depend on the processing

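There were 33 alternatives per comparison, in tool, scaling, filter, covariate and libraries. No member was called in any of them, with a single exception chosen after seeing the data: without the 5 libraries with a TMM factor under 0.9, 1 member, Cox7a1, was called in GF-AOMS against Control (edgeR adjusted p = 0.042). In that fit 277 of all 10897 genes were called, against 1 of the 94 members. The smallest adjusted p of a member over the alternatives was 0.0556 for GF-AOM against Control (Sdha, without Control replicate 2), 0.863 for GF-AOMS against GF-AOM and 0.042 for GF-AOMS against Control. The members' median log2 difference was 0.15 to 0.33 for GF-AOM against Control, -0.21 to 0.11 for GF-AOMS against GF-AOM and 0.05 to 0.33 for GF-AOMS against Control when 1 library was left out. The lowest value of the last 2 came without GF-AOMS replicate 2. With the ribosomal protein share as covariate the medians were -0.22 for GF-AOM and -0.20 for GF-AOMS, each against Control. In that fit, in GF-AOM against Control, Uqcrq was -0.25, Cox7c -0.29 and Atp5l -0.18, and in GF-AOMS against Control Uqcr10 was -0.14, Uqcrq -0.26, Atp5l -0.16 and Atp5mpl -0.31, all opposite in sign to the values without the covariate, and the cause was not tested. For the comparisons with Control, the medians under scaling by total counts (0.16 for GF-AOMS and 0.14 for GF-AOM) and in limma on log2(FPKM + 1) (0.14 for GF-AOMS and 0.12 for GF-AOM) were also lower. With a replicate block the medians were 0.27, -0.04 and 0.23 for GF-AOM against Control, GF-AOMS against GF-AOM and GF-AOMS against Control, with 0 members called. Same-numbered libraries had correlations of -0.62 to 0.52 between their deviations, and in 3 of 18 such pairs the library correlated best with its own number. Over all genes, edgeR called 1, 0 and 80 genes in those comparisons, DESeq2 284, 3 and 375, the replicate block 2, 0 and 33, and edgeR on the compared groups alone 0 in each.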
